A study of Homo sapiens with 27 samples.

Results

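The 10 genes described here are textbook hypoxia-responsive genes, listed by symbol: VEGFA, ADM, SLC2A1, LDHA, PDK1, BNIP3, BNIP3L, DDIT4, NDRG1 and P4HA1. They were taken from the deposited table by an exact match of symbol, and no measured value entered that match. The set itself was chosen with earlier results of these data known, so it was not chosen blind to them. Of the 10 symbols 9 had a row among the 10470 genes of the table, and the level of BNIP3 was not analysed here. Levels were treated as TPM (transcript share scaled to a library total of 1000000), and the tests covered the 6458 genes whose mean over all libraries reached 10 TPM. Of the 9 genes 8 were among them. PDK1 lay below that level and was taken from the same model fitted to every gene of the table.

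Cells sense oxygen through prolyl hydroxylases of the EGLN family, which mark the alpha subunits of hypoxia-inducible factor (HIF) for destruction by the VHL ubiquitin ligase. When oxygen is short the alpha subunits persist, pair with ARNT, and activate genes for blood vessel growth, glucose use, removal of mitochondria and collagen modification. Several of these genes also answer to other signals: VEGFA and DDIT4, for instance, are also induced by the stress factor ATF4.

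RNA was measured in DLD1 cells, an established human colorectal carcinoma line, taken 72 h after they received small interfering RNAs (siRNAs). The siRNAs were directed against VPS37A, VPS37B and VPS37C, 3 paralogs that can each fill the VPS37 position of ESCRT-I, which acts on endosomes to send ubiquitin-tagged receptors to lysosomes. The study asked how transcripts change when the paralogs are depleted singly, in pairs or all together, and the labels describe no change of oxygen in any group. The siRNA groups were siVPS37A#1, siVPS37B#1 and siVPS37C#1, the pairs siVPS37AB#1, siVPS37AC#1 and siVPS37BC#1, and the triple depletion siVPS37ABC#1. Their reference was siCTRL#1, a mixture of non-targeting siRNAs, and NT cells were left untransfected. Each of the 9 groups had 3 replicates, for 27 libraries in all. The series text calls the replicates biological, and in the labels the batch has the same value as the replicate. Each paralog was targeted by 1 siRNA sequence throughout, so an effect of a sequence and an effect of losing its target cannot be told apart.

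The targeted transcripts were low wherever they were targeted. VPS37A stood at 5.54 to 9.11% of the siCTRL#1 mean in its 4 targeted groups, VPS37B at 3.35 to 7.42% and VPS37C at 21.6 to 28.7%. The paralog left untargeted in a pair also shifted. VPS37B stood at 138% of the siCTRL#1 mean in siVPS37AC#1, VPS37C at 135% in siVPS37AB#1 and VPS37A at 69.5% in siVPS37BC#1. The part of these shifts in the results was not tested. Of 8 markers of colorectal epithelium 7 had a row, with a summed level of 6060 to 10507 TPM across libraries. Of the fibroblast markers 0 of 6 had a row, of the leukocyte markers 3 of 6 (summed level 8.11 to 13.5 TPM) and of the endothelial markers 1 of 5 (1.85 to 7.37 TPM). Every library sums to 1000000 TPM and the sequencing depth is unknown, so all errors below come from the replicates. The library descriptions end in a number (80, 81, 84, 85, 88, 89 or 603) whose meaning the labels do not give. In siCTRL#1 and NT it is 88 for replicates 1 and 2 and 603 for replicate 3. Only siVPS37ABC#1 and siVPS37AC#1 (88, replicate 3) and siVPS37B#1 and siVPS37C#1 (603, replicate 3) share a number with siCTRL#1 in 1 library each, and siVPS37A#1, siVPS37AB#1 and siVPS37BC#1 share none. Values within a shared number, or from a fit with a term for it, are therefore given beside the results it touches, and its part in them was not tested otherwise. Within number 88 the depleted library is replicate 3 and the siCTRL#1 libraries are replicates 1 and 2, so those values cross replicate numbers. The fit with the term has no replicate block. That term moved the median change of all tested genes to 0.11 in siVPS37ABC#1, 0.14 in siVPS37AB#1, 0.15 in siVPS37AC#1 and 0.10 in siVPS37A#1, each against siCTRL#1.

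Depletion of all 3 paralogs raised 6 of the 8 tested genes: VEGFA, ADM, BNIP3L, DDIT4, NDRG1 and P4HA1. NDRG1 changed the most, to 5.11 times the siCTRL#1 mean, and the other 5 stood at 1.74 to 2.13 times it. LDHA and SLC2A1 did not pass, and no tested gene of the 10 fell. A change here means a log2(TPM + 1) difference, printed ± its standard error (SE). The p-values are from limma, adjusted by the Benjamini-Hochberg method over all 6458 genes, and a gene was called at an adjusted p under 0.05. Of all tested genes 13.6% were called higher and 8.32% lower in this comparison. The share of its calls that were higher was 62.1%, against 50.4% after quantile normalization and 53.3% after median-of-ratios scaling. With the replicate number as a block in the fit LDHA also passed, making 7 of 8, where 19.4% of all genes were called higher. The median change of the 8 genes was 0.98 and that of all tested genes 0.03. In bulk RNA, more transcript per cell and a larger share of cells with the transcript cannot be told apart. The summed level of the 3 leukocyte markers was 10.3 to 12.3 TPM in siVPS37ABC#1 and 8.40 to 11.7 TPM in siCTRL#1, and that of the epithelial markers 7145 to 8541 TPM and 6443 to 7604 TPM in these groups. Single markers moved within these sums. KRT20 averaged 95.5 ± 4.43 TPM in siVPS37ABC#1 and 27.9 ± 4.66 TPM in siCTRL#1, and CDX2 63.4 ± 17.98 TPM and 155 ± 17.0 TPM in these groups (SD, n = 3 each). With EPCAM, 2 of 6 tested epithelial markers were called higher and 1 lower. CSF1R averaged 1.87 and 0.095 TPM in these groups, CD68 5.78 and 2.41 TPM, and CD14 3.63 and 7.75 TPM. Their part in the results was not tested. All 7 depletions share the same siCTRL#1 libraries, so their changes are not independent of each other.

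**Figure D1:**
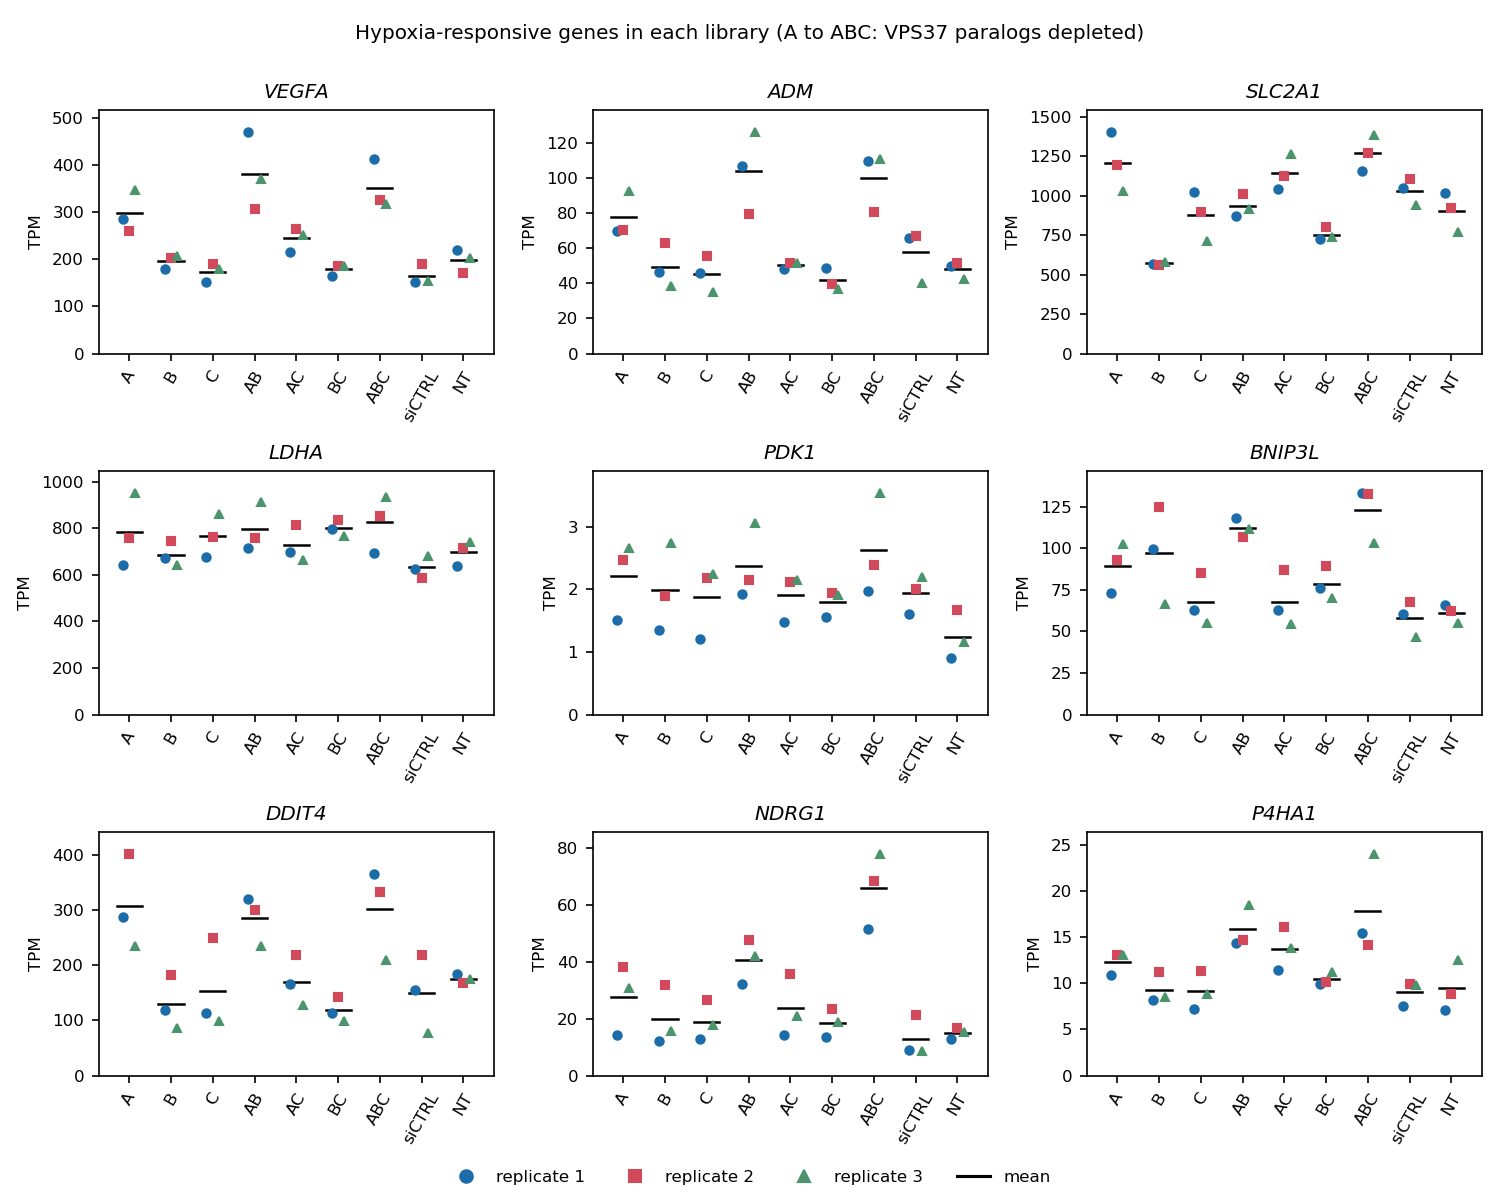
TPM of the 9 measured genes in each library (linear axes from 0), by siRNA group, with the control siRNA and untransfected cells at the right. Symbols are the 3 replicates and bars the group means. The siVPS37AB#1 and siVPS37ABC#1 means are the highest for VEGFA, ADM and NDRG1, with single siVPS37A#1 libraries among theirs, and the siVPS37B#1 libraries are the lowest for SLC2A1.

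The secreted factors come first. VEGFA encodes vascular endothelial growth factor A, which makes blood vessels sprout. It had 414, 325 and 318 TPM in siVPS37ABC#1 cells (replicates 1, 2 and 3), against 152, 191 and 153 TPM in siCTRL#1 cells. The ranges do not overlap, and every same-numbered pair was higher. The change was 1.09 ± 0.16 (adjusted p = 1.35e-05), and 0.90 within library number 88. VEGFA also had 471, 306 and 371 TPM in siVPS37AB#1 cells, a change of 1.19 ± 0.16 (adjusted p = 9.90e-06). VEGFA was called in 4 of the 7 depletions, the 4 that contain the VPS37A siRNA.

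ADM encodes adrenomedullin, a secreted peptide that widens blood vessels. It had 109, 80.5 and 111 TPM in siVPS37ABC#1 cells, against 65.8, 66.9 and 40.2 TPM in siCTRL#1 cells. The groups do not overlap, and siCTRL#1 replicate 3 lies well below the other 2 control libraries. The change was 0.81 ± 0.21 (adjusted p = 0.00639), and 0.73 within library number 88. Without siCTRL#1 replicate 3 it was 0.57 and no longer passed (adjusted p = 0.0697). In siVPS37AB#1 cells ADM had 107, 79.5 and 126 TPM, a change of 0.85 ± 0.21 (adjusted p = 0.00694). That call was lost without siCTRL#1 replicate 3 (adjusted p = 0.0672) or without siVPS37AB#1 replicate 3 (adjusted p = 0.0531).

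Genes of glucose use moved least in the triple depletion. SLC2A1 encodes the glucose transporter GLUT1. It had 1156, 1267 and 1385 TPM in siVPS37ABC#1 cells, against 1049, 1108 and 939.6 TPM in siCTRL#1 cells. The ranges lie apart, but by less than the spread within either group, and the change of 0.30 ± 0.14 did not pass (adjusted p = 0.123). With a term for the library number it was 0.37 and passed (adjusted p = 0.0233), as it did against NT (0.49, adjusted p = 0.00856). LDHA encodes the lactate dehydrogenase subunit that turns pyruvate into lactate. It had 692, 853 and 935 TPM in siVPS37ABC#1 cells, against 626, 586 and 682 TPM in siCTRL#1 cells. Its change of 0.38 ± 0.14 did not pass (adjusted p = 0.0556) but did with the replicate block (adjusted p = 0.0151), after quantile normalization (0.43, adjusted p = 0.0302) and without siVPS37ABC#1 replicate 1 (adjusted p = 0.0218). PDK1 encodes a kinase that turns off pyruvate dehydrogenase. It had 1.97, 2.39 and 3.54 TPM in siVPS37ABC#1 cells, against 1.61, 2.01 and 2.20 TPM in siCTRL#1 cells. These overlapping groups differed by 0.29 ± 0.20 (adjusted p = 0.337 in the fit without a filter on level), and with a term for the library number by 0.53 (adjusted p = 0.0201). Against NT the difference was 0.69 (adjusted p = 0.0129). At such levels log2(TPM + 1) understates a fold change.

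BNIP3L, also called NIX, is a receptor in the outer mitochondrial membrane that calls in autophagosomes. It had 133, 133 and 103 TPM in siVPS37ABC#1 cells, against 60.4, 67.3 and 46.4 TPM in siCTRL#1 cells. The lowest depleted library lies above the highest control library. The change was 1.08 ± 0.20 (adjusted p = 3.71e-04), and the 3 same-numbered pairs differed by 1.13, 0.97 and 1.13. Within library number 88 it was 0.68, and with a term for that number 0.65 (adjusted p = 0.00152). In siVPS37AB#1 cells BNIP3L had 118, 107 and 112 TPM. That change was 0.95 ± 0.20 (adjusted p = 0.00223), and with the library number term 0.41, which did not pass (adjusted p = 0.0815).

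DDIT4 and NDRG1 are growth and stress genes. DDIT4 encodes REDD1, an inhibitor of the growth kinase mTORC1. It had 365, 332 and 208 TPM in siVPS37ABC#1 cells, against 156, 218 and 76.2 TPM in siCTRL#1 cells. These groups overlap: siVPS37ABC#1 replicate 3 lies below siCTRL#1 replicate 2, although each same-numbered pair was higher by 0.61 to 1.44. The change of 1.09 ± 0.33 passed (adjusted p = 0.0190), and passed with the replicate block too, but several other choices ended that call. It was 0.67 without siCTRL#1 replicate 3 (adjusted p = 0.179), 0.74 against NT (adjusted p = 0.108) and 0.55 with a term for the library number (adjusted p = 0.0765). Without siVPS37ABC#1 replicate 1 or 2 the adjusted p was 0.0838 or 0.0716. Within library number 88 the difference was 0.18, where siVPS37ABC#1 replicate 3 is set against siCTRL#1 replicates 1 and 2. Against siCTRL#1 replicate 3 the same library was higher by 1.44. DDIT4 had 319, 300.2 and 234 TPM in siVPS37AB#1 cells, a change of 1.03 ± 0.33 (adjusted p = 0.0366). It was lost with the library number term (0.48, adjusted p = 0.209), against NT (0.68, adjusted p = 0.163), after quantile normalization (adjusted p = 0.0606) or median-of-ratios scaling (adjusted p = 0.0877). It was also lost without siCTRL#1 replicate 1 (adjusted p = 0.0557), siVPS37AB#1 replicate 1 (adjusted p = 0.124) or 2 (adjusted p = 0.0942), or siCTRL#1 replicate 3 (0.61, adjusted p = 0.260).

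NDRG1 encodes a protein of membrane traffic and differentiation that suppresses metastasis in colon cancer models. It had 51.7, 68.5 and 77.9 TPM in siVPS37ABC#1 cells, against 9.03, 21.1 and 8.62 TPM in siCTRL#1 cells. Every depleted library lay far above every control library. The change was 2.36 ± 0.37 (adjusted p = 4.10e-05), and 2.41 within library number 88. NDRG1 had 32.2, 47.6 and 42.2 TPM in siVPS37AB#1 cells, a change of 1.68 ± 0.37 (adjusted p = 0.00283). Replicate 2 was the highest library of its group in 8 of the 9 groups, siVPS37ABC#1 being the exception. The SE of NDRG1 fell to 0.20 with the replicate number as a block.

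P4HA1 encodes the catalytic subunit of the prolyl hydroxylase that lets collagen fold. It had 15.4, 14.2 and 24.03 TPM in siVPS37ABC#1 cells, against 7.51, 9.92 and 9.88 TPM in siCTRL#1 cells. The groups do not overlap, and replicate 3 of siVPS37ABC#1 stands above the other 2 depleted libraries. The change was 0.88 ± 0.20 (adjusted p = 0.00229), and 1.38 within library number 88. Since P4HA1 lay near the level of 10 TPM, it was also tested without that limit, and the call held (adjusted p = 0.00270). In siVPS37AB#1 cells it had 14.4, 14.7 and 18.5 TPM, a change of 0.74 ± 0.20 (adjusted p = 0.0136). Without siCTRL#1 replicate 1 or siVPS37AB#1 replicate 3 that call was lost (adjusted p = 0.0728 or 0.0736).

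**Figure D2:**
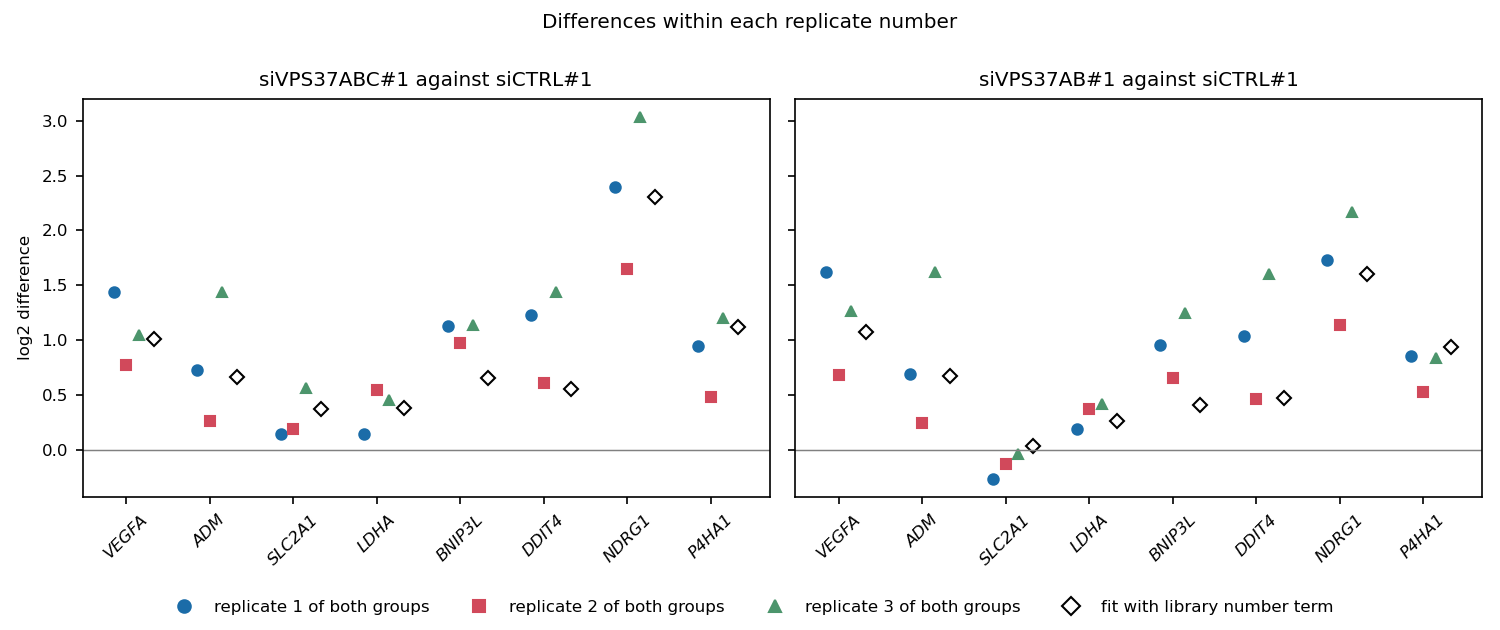
Difference of log2(TPM + 1) within each replicate number for the 8 tested genes, for the triple depletion (left) and the VPS37A and VPS37B pair (right), each minus siCTRL#1. Diamonds are fits with a term for the library number. All 8 genes were higher in every pair of the triple depletion (32.6% of all tested genes were), and in the other panel all but SLC2A1 were (38.8% of all tested genes). The diamonds of BNIP3L and DDIT4 lie below or near their lowest pair.

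The words bound by HIF, ACGTG and GCGTG, were looked for near the starts of these genes. RefSeq windows of 300 bases (GRCh38.p14), with 250 bases before and 50 after each annotated start, were searched on both strands. Of 35116 such windows, 21.4% held ACGTG, 36.5% held GCGTG and 48.4% held either. The 9 windows read belong to 7 of the 10 genes, BNIP3 included, and 8 of the 9 held either word. None of them belongs to VEGFA, BNIP3L or NDRG1. The genes were listed as hypoxia-responsive, so this share does not bear on their changes here, and a link was not tested. LDHA, not called in siVPS37ABC#1, had up to 5 ACGTG matches in a window, and the called ADM had 0. An ACGTG within CACGTG matches on both strands and counts as 2. Printed below are the windows of the called genes ADM, DDIT4 and P4HA1, 5′ to 3′ on the gene's strand, with matches in capitals. Positions count the first base of the transcript as 1, with no position 0. A match describes letters and does not show binding.
ADM, chr11:10304823-10305122, plus strand, 1 GCGTG at -101: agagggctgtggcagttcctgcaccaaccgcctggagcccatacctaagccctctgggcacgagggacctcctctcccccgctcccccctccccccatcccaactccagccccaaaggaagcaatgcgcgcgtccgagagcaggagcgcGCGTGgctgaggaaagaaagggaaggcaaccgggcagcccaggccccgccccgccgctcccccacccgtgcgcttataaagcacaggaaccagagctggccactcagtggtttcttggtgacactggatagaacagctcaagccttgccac
DDIT4, chr10:72273674-72273973, plus strand, 1 ACGTG at -125 and 3 GCGTG, the nearest at 26: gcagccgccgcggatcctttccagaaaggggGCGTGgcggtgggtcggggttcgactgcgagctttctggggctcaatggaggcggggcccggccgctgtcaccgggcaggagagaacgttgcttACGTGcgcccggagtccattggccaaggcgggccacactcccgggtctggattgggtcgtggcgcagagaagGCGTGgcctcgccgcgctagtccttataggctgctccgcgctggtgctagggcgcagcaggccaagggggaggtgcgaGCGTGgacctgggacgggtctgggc
P4HA1, chr10:73096817-73097116, minus strand, 1 ACGTG at -86, read as its reverse complement CACGT: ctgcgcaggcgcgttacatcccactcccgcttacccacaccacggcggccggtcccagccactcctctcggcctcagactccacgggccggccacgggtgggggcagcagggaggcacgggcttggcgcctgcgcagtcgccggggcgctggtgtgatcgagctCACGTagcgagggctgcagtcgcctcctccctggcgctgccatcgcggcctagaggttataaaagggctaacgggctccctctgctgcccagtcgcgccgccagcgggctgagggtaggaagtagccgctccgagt

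The same 6 genes were called higher in siVPS37AB#1 as in siVPS37ABC#1, where 11.2% of all tested genes were called higher in siVPS37AB#1. With the replicate block LDHA joined them (0.33 ± 0.12, adjusted p = 0.0438), with 18.1% of all genes. In siVPS37AB#1 cells LDHA had 716, 758 and 911 TPM. SLC2A1 had 870.3, 1011 and 917 TPM there, lower than siCTRL#1 in each pair, and its change of -0.14 ± 0.14 did not pass (adjusted p = 0.536). Higher calls made up 75.6% of all calls in siVPS37AB#1, against 53.7% after quantile normalization and 50.5% after median-of-ratios scaling. Between siVPS37ABC#1 and siVPS37AB#1 no gene of the 8 was called by limma, where 1.04% of all genes were (34.3% of those calls higher, against 55.4% after quantile normalization, and 45 higher and 30 lower after median-of-ratios scaling), and 1 of the 8 had an unadjusted p under 0.05. That 1 was SLC2A1, higher by 0.44 ± 0.14 (unadjusted p = 0.00321, adjusted p = 0.138). NDRG1 had a difference of 0.68 ± 0.37 (95% interval -0.08 to 1.45). For VEGFA, ADM, BNIP3L, DDIT4 and P4HA1 the differences were -0.11 to 0.14, with intervals reaching from -0.63 at the lowest to 0.74 at the highest, both for DDIT4.

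Loss of VPS37A alone raised VEGFA, to 286, 259.7 and 348 TPM in siVPS37A#1 cells, against 152, 191 and 153 TPM in siCTRL#1 cells. The change was 0.84 ± 0.16 (adjusted p = 0.00353), with every depleted library above every control library. Only 1.19% of all genes were called higher, and 65.3% of all calls were higher ones, against 44.9% after quantile normalization and 44.2% after median-of-ratios scaling. In a fit of only these 2 groups VEGFA did not pass (adjusted p = 0.0542), and against NT it did (0.59, adjusted p = 0.0230). With the replicate block 4 of the 8 genes passed, where 4.46% of all genes did. The 3 that joined were DDIT4 (1.12 ± 0.20, adjusted p = 9.36e-04), NDRG1 (1.05 ± 0.20, adjusted p = 0.00142) and BNIP3L (0.62 ± 0.16, adjusted p = 0.0159). With the library number term none of these 3 passed: DDIT4 had 0.69 (adjusted p = 0.212), NDRG1 1.06 (adjusted p = 0.0718) and BNIP3L 0.27 (adjusted p = 0.460), while VEGFA passed (0.90, adjusted p = 0.0242). DDIT4 had 287, 401 and 235 TPM in siVPS37A#1 cells, the highest group mean of the gene, and passed also without siCTRL#1 replicate 2 (adjusted p = 0.0394). NDRG1 had 14.3, 38.3 and 30.8 TPM there, and BNIP3L 72.97, 92.9 and 103 TPM. ADM had 69.97, 70.4 and 92.4 TPM in siVPS37A#1 cells, all above the control range, with a change of 0.45 ± 0.21 (adjusted p = 0.360), and against NT of 0.68 (adjusted p = 0.0490). All 8 genes were higher than siCTRL#1 in 3 of 3 pairs, as were 25.6% of all tested genes, and for 5 of them every depleted library was above every control library, as for 11.0% of all tested genes.

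The VPS37A and VPS37C pair gave smaller values than the triple depletion for most of these genes. In siVPS37AC#1 cells VEGFA had 215, 265 and 253 TPM, all above the control range, a change of 0.56 ± 0.16 (adjusted p = 0.0384). It was the 1 called gene of the 8, where 3.07% of all genes were called higher. Of all calls 69.7% were higher, against 47.5% after quantile normalization and 43.8% after median-of-ratios scaling. The VEGFA call was lost under both scalings (adjusted p = 0.0722 and 0.0854), against NT (0.31, adjusted p = 0.193) and with the library number term (0.49, adjusted p = 0.0611). It was also lost without siCTRL#1 replicate 1 (adjusted p = 0.131) or 3 (adjusted p = 0.127) and without siVPS37AC#1 replicate 2 (adjusted p = 0.170) or 3 (adjusted p = 0.114). With the replicate block NDRG1 (0.84 ± 0.20, adjusted p = 0.00638) and P4HA1 (0.54 ± 0.16, adjusted p = 0.0240) passed too, with 8.30% of all genes. These 2 also passed with the library number term (0.79, adjusted p = 0.0385, and 0.78, adjusted p = 0.0100). NDRG1 had 14.1, 35.8 and 21.1 TPM and P4HA1 11.4, 16.1 and 13.8 TPM in siVPS37AC#1 cells. ADM had 47.95, 51.5 and 51.5 TPM there, within the control range. Within library number 88 the VEGFA difference was 0.57, that of NDRG1 0.57 and that of P4HA1 0.62, while BNIP3L was at -0.23 and DDIT4 at -0.53.

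Set against this pair, siVPS37ABC#1 cells had higher ADM (0.97 ± 0.21, adjusted p = 0.00637), BNIP3L (0.87 ± 0.20, adjusted p = 0.0129) and NDRG1 (1.52 ± 0.37, adjusted p = 0.0159), where 2.46% of all genes were called higher. With the replicate block VEGFA (0.52 ± 0.15, adjusted p = 0.0240) and DDIT4 (0.82 ± 0.20, adjusted p = 0.00843) made 5 of 8, with 5.81% of all genes. The VEGFA difference passed also under quantile normalization (adjusted p = 0.0371). The BNIP3L call was lost without siVPS37ABC#1 replicate 1 or 2 (adjusted p = 0.0561 or 0.0684) or siVPS37AC#1 replicate 1 or 3 (adjusted p = 0.0709 or 0.0932). The NDRG1 call was lost without siVPS37ABC#1 replicate 2 or 3 (adjusted p = 0.0639 or 0.0559) or siVPS37AC#1 replicate 1 or 3 (adjusted p = 0.134 or 0.0599). The 6 libraries of these groups carry matching library numbers in each replicate, and a fit with a term for that number gave the same differences.

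SLC2A1 was lower where VPS37B alone was depleted. In siVPS37B#1 cells it had 569, 561 and 582 TPM, against 1049, 1108 and 939.6 TPM in siCTRL#1 cells. The 3 depleted libraries lie close together, and their mean is 55.3% of the control mean. SLC2A1 fell by 0.85 (SE 0.14, adjusted p = 0.00141), and by 0.69 within library number 603. It was the 1 called gene of the 8, where 0.790% of all genes were called lower. BNIP3L had 99.3, 125 and 66.7 TPM in siVPS37B#1 cells, higher by 0.70 ± 0.20 with overlapping ranges (adjusted p = 0.0768). It passed with the replicate block (adjusted p = 0.00660), where 4.61% of all genes were called higher, and without siVPS37B#1 replicate 3 (adjusted p = 0.0165). VEGFA had 179, 203 and 206 TPM there, a difference of 0.25 ± 0.16 (adjusted p = 0.447).

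In siVPS37BC#1 cells SLC2A1 had 726, 798 and 736 TPM, all below the control range. Its change of -0.45 ± 0.14 did not pass (adjusted p = 0.119) but did with the replicate block (adjusted p = 0.0395), where 1.98% of all genes were called lower. Without the block limma called none of the 8 genes, with 1.29% of all genes called in either direction (49.4% of them higher, against 36.4% after median-of-ratios scaling) and 4 of the 8 at an unadjusted p under 0.05. VEGFA had 164, 187 and 186 TPM and ADM 48.9, 39.6 and 36.6 TPM in siVPS37BC#1 cells, both overlapping the control range. DDIT4 and NDRG1 overlapped it too. LDHA had 797, 836 and 765 TPM there and BNIP3L 76.2, 89.5 and 70.2 TPM, all above the control range. P4HA1, with 9.95, 10.2 and 11.3 TPM, also lay above it. The changes of LDHA, BNIP3L and P4HA1 were 0.34, 0.44 and 0.19, and none was called. The share of all genes lying above the control range there was not computed. In siVPS37C#1 cells limma called none of the 8, 0 had an unadjusted p under 0.05, and 0.496% of all genes were called (21.9% of them higher, against 32.5% after quantile normalization and 35.6% after median-of-ratios scaling). There VEGFA had 152, 191 and 179.8 TPM, SLC2A1 1022, 896 and 716 TPM, and NDRG1 12.7, 26.4 and 17.7 TPM, each overlapping siCTRL#1. The intervals of their log2 differences were -0.24 to 0.40 for VEGFA, -0.53 to 0.03 for SLC2A1 and -0.19 to 1.33 for NDRG1.

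The triple depletion differed from the VPS37B and VPS37C pair in 7 of the 8 genes, all but LDHA. All 7 were higher in siVPS37ABC#1, where 7.46% of all tested genes were. Of the calls over all genes in that comparison 62.1% were higher, against 51.5% after quantile normalization. ADM differed by 1.24 ± 0.21 (adjusted p = 2.56e-04), VEGFA by 0.97 ± 0.16 (adjusted p = 1.61e-04) and SLC2A1 by 0.75 ± 0.14 (adjusted p = 5.03e-04). NDRG1 differed by 1.78 ± 0.37 (adjusted p = 0.00186) and DDIT4 by 1.32 ± 0.33 (adjusted p = 0.00932). BNIP3L (0.63 ± 0.20, adjusted p = 0.0418) and P4HA1 (0.68 ± 0.20, adjusted p = 0.0248) passed more narrowly. The BNIP3L call was lost under both other scalings (adjusted p = 0.0731 and 0.0677) and without replicate 1 or 2 of siVPS37ABC#1 or 1 or 3 of siVPS37BC#1 (adjusted p = 0.115, 0.133, 0.115 and 0.137). The P4HA1 call was lost in a fit of the 2 groups alone (adjusted p = 0.0542), without replicate 3 of siVPS37ABC#1 (0.46, adjusted p = 0.179) and without replicate 1 or 2 of siVPS37BC#1 (adjusted p = 0.0841 or 0.0748).

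**Figure D3:**
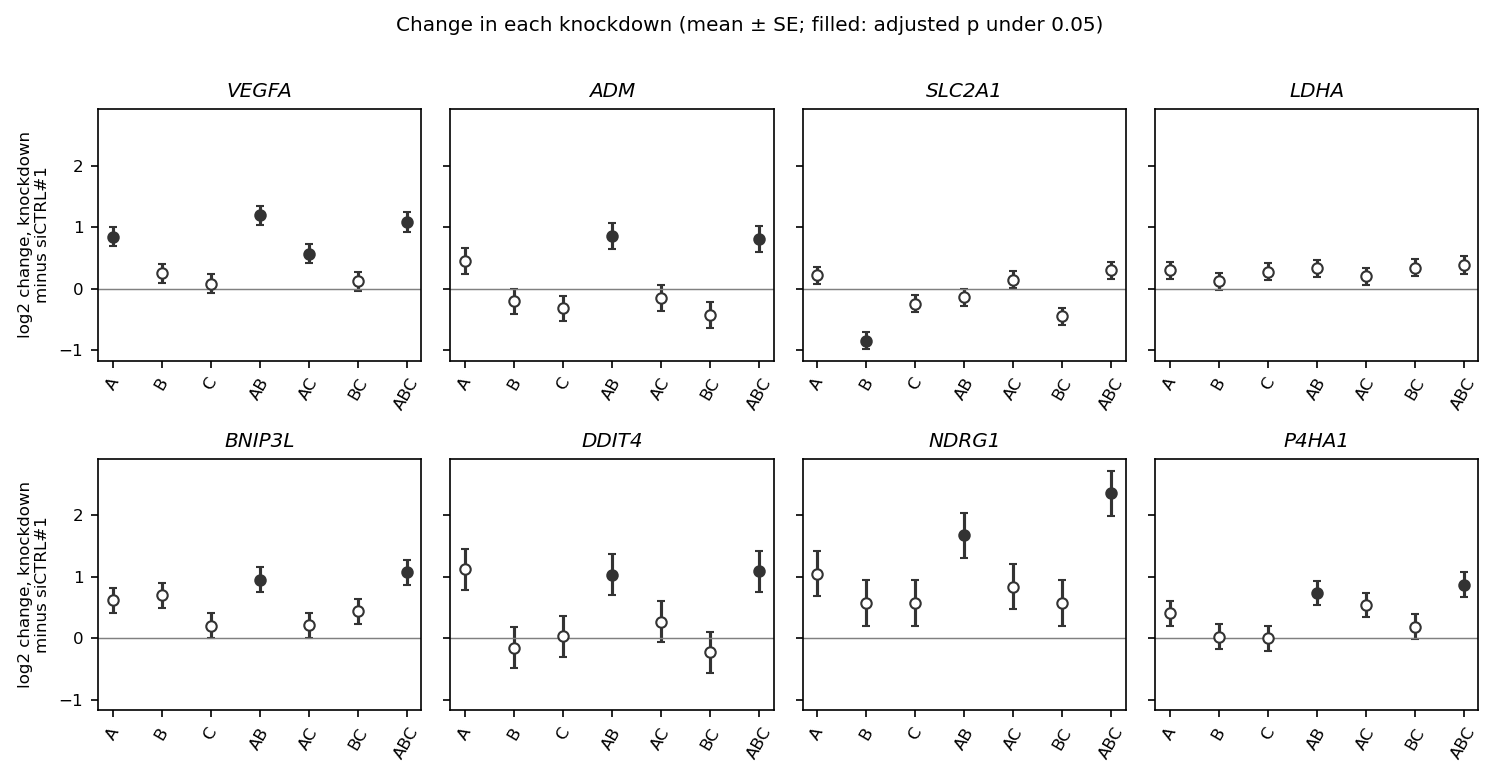
Change of log2(TPM + 1) against siCTRL#1 with its SE for the 8 tested genes in the 7 depletions. Filled points passed at an adjusted p under 0.05. VEGFA is filled in the 4 depletions that include VPS37A, SLC2A1 is filled only for VPS37B alone, where it is lower, and LDHA is filled in none.

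The 8 transfected groups hold every combination of the 3 siRNAs, so the average effect of each siRNA was taken as the mean of the 4 groups with it minus that of the 4 groups without it. The VPS37A siRNA raised 7 of the 8 genes on average, all but LDHA, where 20.9% of all genes were called higher. Of the calls over all genes 72.0% were higher, against 49.8% after quantile normalization and 48.3% after median-of-ratios scaling. NDRG1 was higher by 1.05 ± 0.19 (adjusted p = 1.11e-04), DDIT4 by 0.97 ± 0.17 (adjusted p = 8.90e-05) and VEGFA by 0.81 ± 0.08 (adjusted p = 2.07e-08). ADM was higher by 0.73 ± 0.11 (adjusted p = 9.26e-06), P4HA1 by 0.59 ± 0.10 (adjusted p = 7.92e-05) and SLC2A1 by 0.52 ± 0.07 (adjusted p = 2.60e-06). For SLC2A1 the change was 0.22 in siVPS37A#1 against siCTRL#1, which did not pass. It was 0.75 in siVPS37ABC#1 against siVPS37BC#1, which did. BNIP3L was higher by 0.38 ± 0.10 (adjusted p = 0.00692), and with the library number term by 0.13, which did not pass (adjusted p = 0.219). LDHA had 0.12 ± 0.07 (95% interval -0.03 to 0.26). PDK1, in the fit without a filter, had 0.17 ± 0.10 (adjusted p = 0.219), and passed with the replicate block (adjusted p = 0.0381).

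The VPS37B siRNA raised 3 genes on average, where 8.69% of all genes were called higher, and lowered 1, where 7.54% were called lower. BNIP3L was higher by 0.53 ± 0.10 (adjusted p = 8.22e-04), NDRG1 by 0.68 ± 0.19 (adjusted p = 0.0128) and VEGFA by 0.29 ± 0.08 (adjusted p = 0.0120). SLC2A1 was lower, at -0.32 ± 0.07 (adjusted p = 0.00222). VEGFA was lost with the library number term (0.22, adjusted p = 0.130). P4HA1, at 0.22 ± 0.10 (adjusted p = 0.136), passed with the replicate block (adjusted p = 0.0369), where 14.8% of all genes were called higher, and with the library number term (0.35, adjusted p = 0.0242). ADM, at 0.26 ± 0.11 (adjusted p = 0.0883), passed without siVPS37AB#1 replicate 2 or siVPS37B#1 replicate 3 (adjusted p = 0.0498 or 0.0454).

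For the VPS37C siRNA limma called none of the 8 genes, with 10.5% of all genes called in either direction and 1 of the 8 at an unadjusted p under 0.05. That 1 was ADM, lower at -0.30 ± 0.11 (adjusted p = 0.0690). It passed with the replicate block (adjusted p = 0.0361), where 10.4% of all genes were called lower, and with the library number term (-0.34, adjusted p = 0.00977). That term also brought BNIP3L (-0.21, adjusted p = 0.0418) and DDIT4 (-0.37, adjusted p = 0.0291) past the threshold. ADM passed too without siVPS37AB#1 or siVPS37C#1 replicate 2 (adjusted p = 0.0394 and 0.0430) or without siCTRL#1 or siVPS37B#1 replicate 3 (adjusted p = 0.0199 and 0.0370).

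Whether combined depletions exceeded the sum of single ones was tested on the log2 scale. For siVPS37AB#1 limma called 0 of the 6458 genes (0%), with 483 at an unadjusted p under 0.05, 2 of them among the 8. These were ADM (0.62 ± 0.30, adjusted p = 0.658) and SLC2A1 (0.49 ± 0.19, adjusted p = 0.534). With the replicate block limma called 33 of the 6458 genes there (28 higher and 5 lower), and 0 of the 8. For siVPS37ABC#1 limma without the block called 0 genes (0%), with 449 at an unadjusted p under 0.05, 2 of them among the 8. SLC2A1 stood above the sum (95% interval of the departure 0.62 to 1.74, adjusted p = 0.186), and with the replicate block it was called (adjusted p = 0.0387), 1 of the 9 genes or 0.139% called higher there. ADM stood 0.90 ± 0.42 above it (adjusted p = 0.700). For NDRG1 the interval of the departure in siVPS37ABC#1 reached from -1.37 to 1.68 (SE 0.74, and 0.40 with the replicate block).

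Against untransfected cells, siCTRL#1 changed none of the 8 genes by limma, with 0 at an unadjusted p under 0.05 and 3.17% of all genes called. Of those calls 31.7% were higher, against 43.0% after quantile normalization and 46.5% after median-of-ratios scaling. DDIT4 had 156, 218 and 76.2 TPM in siCTRL#1 cells, against 184, 167 and 175 TPM in NT cells, and NDRG1 9.03, 21.1 and 8.62 TPM against 12.8, 16.7 and 15.3 TPM. For both genes the transfected controls surround the untransfected ones. PDK1 had 1.61, 2.01 and 2.20 TPM in siCTRL#1 cells, against 0.90, 1.66 and 1.15 TPM in NT cells. That difference was 0.40 ± 0.20 (adjusted p = 0.301 in the fit without a filter, and 0.0487 with the replicate block).

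Ordered by group mean, the genes fell into different patterns. VEGFA ran from siVPS37AB#1 (382 ± 82.7 TPM, SD, n = 3) through siVPS37ABC#1 (352 ± 53.2), siVPS37A#1 (298 ± 45.5) and siVPS37AC#1 (245 ± 26.1) to NT (198 ± 25.5), with siCTRL#1 last (165 ± 21.9). The first 2 of these differ by less than their spread. DDIT4 had 3 group means of 284 TPM or more, siVPS37A#1, siVPS37ABC#1 and siVPS37AB#1, and the other 6 at or below 175 TPM. The means of those 3 groups differ from each other by less than their SDs. NDRG1 had a gap between its first 2 groups, siVPS37ABC#1 (66.03 ± 13.3 TPM) and siVPS37AB#1 (40.6 ± 7.83 TPM), larger than their spread, although that difference did not pass above. SLC2A1 had its 2 lowest means in siVPS37BC#1 (753 ± 39.3 TPM) and siVPS37B#1 (571 ± 10.7 TPM), a gap larger than their spread.

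Over the 9 group means VEGFA followed P4HA1 (Pearson r = 0.93), DDIT4 (0.92), ADM (0.91) and NDRG1 (0.90), and NDRG1 followed P4HA1 (0.92). SLC2A1 had r = 0.06 with BNIP3L and 0.26 with LDHA. These are descriptions over 9 points that share controls and libraries. Among the 6457 other tested genes, those closest to VEGFA over the 9 means were PPP1R15A (r = 0.99, and 0.91 over 27 libraries after removal of replicate means), MXD1 (0.99 and 0.95) and ATF3 (0.99 and 0.95). For NDRG1 they were ITGA5 (0.99 and 0.94), WASL (0.99 and 0.70) and PLAUR (0.98 and 0.94). For ADM they were NFKBIA (0.99 and 0.88), TMBIM1 (0.98 and 0.75) and FLCN (0.98 and 0.73). For BNIP3L they were EGLN2 (0.97 and 0.69), DVL1 (0.97 and 0.84) and PIM3 (0.96 and 0.90). For DDIT4 they were HBEGF (0.97 and 0.88), TGFB2 (0.95 and 0.89) and PPARD (0.95 and 0.74), and for P4HA1 TSC22D1 (0.99 and 0.89), OSBPL2 (0.99 and 0.83) and YIPF5 (0.99 and 0.64). SLC2A1 came closest to METTL5 (0.95 and 0.78), TAF5L (0.94 and 0.61) and PIGG (0.94 and 0.75), and LDHA to EIF6 (0.94 and 0.31), SPTBN1 (0.92 and 0.66) and WDR26 (0.91 and 0.71).

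The oxygen-sensing machinery itself was measured in 8 genes, 7 of them above 10 TPM. In siVPS37ABC#1 cells 2 of the 7 rose and 0 fell against siCTRL#1, with a median change of 0.34. For this and the lists that follow, the shares of all tested genes called in this comparison were 13.6% higher and 8.32% lower. HIF1A, the main alpha subunit, had 83.4 to 108 TPM in siVPS37ABC#1 cells, against 48.2 to 62.6 TPM in siCTRL#1 cells (0.80 ± 0.16, adjusted p = 4.70e-04). EGLN1, the hydroxylase that sets HIF1A stability and is itself a HIF target, had 29.95 to 41.8 TPM, against 15.8 to 23.8 TPM (0.75 ± 0.17, adjusted p = 0.00189). EGLN2 (0.42 ± 0.16, adjusted p = 0.0649), HIF1AN (0.34 ± 0.14, adjusted p = 0.0910) and EGLN3 (0.32 ± 0.31, adjusted p = 0.503) did not pass. Of 30 other hypoxia-induced genes 13 were tested, and 4 rose and 0 fell, with a median of 0.33. BHLHE40, a transcriptional repressor, had 137 to 184 TPM in siVPS37ABC#1 cells, against 30.2 to 39.05 TPM in siCTRL#1 cells (2.06 ± 0.19, adjusted p = 1.78e-08). The others were the histone demethylase KDM4B (1.00 ± 0.17), the MYC antagonist MXI1 (0.81 ± 0.17) and the glycogen branching enzyme GBE1 (0.74 ± 0.14). ERO1A, which oxidizes disulfides in the endoplasmic reticulum, was the fifth by p and did not pass (0.52 ± 0.24, adjusted p = 0.120).

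Glycolysis was split. Of 13 tested genes 3 rose, 3 fell and 7 did not pass in siVPS37ABC#1, with a median of 0.08. The neuronal enolase ENO2 had 17.2 to 21.97 TPM in siVPS37ABC#1 cells, against 2.98 to 8.44 TPM in siCTRL#1 cells (1.64 ± 0.24, adjusted p = 1.75e-05). SLC16A3, the lactate exporter MCT4, had 118 to 146 TPM, against 34.8 to 70.4 TPM (1.56 ± 0.25, adjusted p = 4.28e-05). The kinase gene PGK1 rose less (0.46 ± 0.13, adjusted p = 0.0120). LDHB, the subunit paired with LDHA, fell (-0.66 ± 0.20, adjusted p = 0.0191), as did the lactate importer SLC16A1 (-0.62 ± 0.21, adjusted p = 0.0339) and the isomerase GPI (-0.31 ± 0.11, adjusted p = 0.0415), which is named because it completes the 3 that fell. The 5 tested genes of the pyruvate dehydrogenase complex did not pass, with DLAT nearest (-0.27 ± 0.18, adjusted p = 0.319).

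Around BNIP3L, 2 of 6 tested mitophagy genes rose and 0 fell, with a median of 0.43. SQSTM1, the autophagy receptor p62, had 1212 to 1332 TPM in siVPS37ABC#1 cells, against 389 to 512 TPM in siCTRL#1 cells (1.55 ± 0.14, adjusted p = 7.92e-09). PINK1, the kinase that marks damaged mitochondria, rose by 1.16 ± 0.18 (adjusted p = 2.48e-05). Beside DDIT4, 5 of 11 tested genes of the ATF4 list, which holds ATF4 and its targets, rose and 0 fell, with a median of 0.77. They were ATF3 (1.97 ± 0.27), SLC7A11 (1.84 ± 0.32), PPP1R15A (1.44 ± 0.45), SESN2 (1.13 ± 0.19) and TRIB3 (0.86 ± 0.14). Of 3 tested mTORC1 inhibitors and FOXO targets TRIB1 rose (1.86 ± 0.18, adjusted p = 3.17e-08) and TXNIP fell (-1.08 ± 0.22, adjusted p = 8.03e-04). Beside P4HA1, 1 of 7 tested collagen hydroxylation genes rose and 0 fell: P3H1 (0.48 ± 0.16, adjusted p = 0.0345), with a median of 0.19. That share is near the 13.6% of all genes. P4HB, the partner subunit of P4HA1, had 0.37 ± 0.15 (adjusted p = 0.0750). Relatives of VEGFA and ADM were tested in 2 genes, VEGFB (-0.21 ± 0.16, adjusted p = 0.390) and the co-receptor NRP1 (0.11 ± 0.26, adjusted p = 0.812), and of the NDRG family NDRG3 was (-0.20 ± 0.17, adjusted p = 0.431). In siVPS37AB#1 cells against siCTRL#1, 2 of 7 HIF pathway components and 4 of 13 other hypoxia-induced genes rose. So did 5 of 11 genes of the ATF4 list and 3 of 6 mitophagy genes, and 0 genes of these lists fell. Glycolysis had 2 higher and 2 lower of 13. Of all tested genes 11.2% were called higher there, and 233 of 6458 lower. For the average effect of the VPS37A siRNA, 8 of 13 other hypoxia-induced genes and 10 of 11 genes of the ATF4 list were higher. So were 3 of 6 mitophagy, 2 of 13 glycolysis and 2 of 7 collagen hydroxylation genes. None of these lists had a gene lower, where 20.9% of all tested genes were called higher. The glycolysis share lies below that of all genes and the collagen hydroxylation share near it. For the HIF pathway components 3 of 7 were higher and 2 lower in that comparison, where 525 of all 6458 tested genes were called lower.

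**Figure D4:**
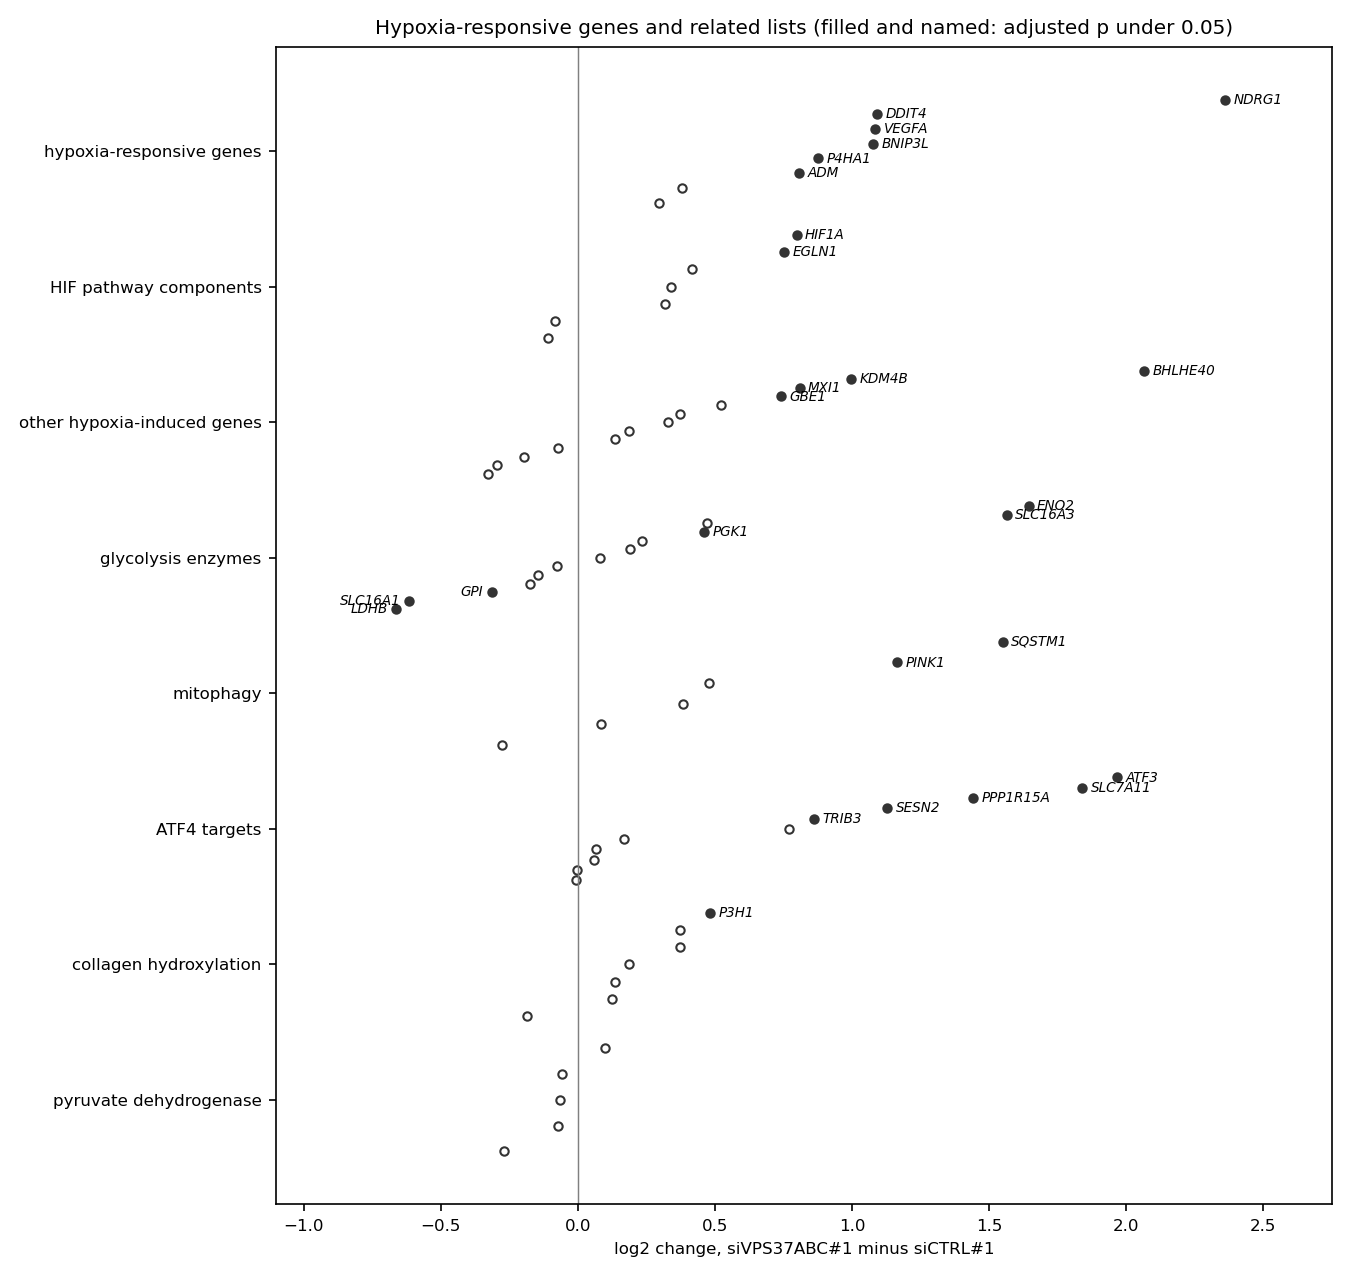
Change of log2(TPM + 1) in siVPS37ABC#1 minus siCTRL#1 for each tested gene of the hypoxia-responsive set and of 7 related lists, 1 point a gene in each list. Lists can share genes. Filled, named points passed at an adjusted p under 0.05. Of the set, 6 of 8 points are filled, all above 0, while glycolysis has 3 filled points on each side.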

How the data were processed

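Libraries came from an amplicon panel of human transcripts (Ion AmpliSeq), per the labels' protocols. Each of the 27 deposited columns sums to 1000000 and was treated as TPM, and the step that made the values is not stated. Per the submitters' processing notes the build was hg19 and the tools included DESeq2 1.18.1 and HTSeq 0.6.0, with no role stated. No counts could be recovered, so depth is unknown, no counting interval is given and edgeR was not run. Mean TPM fell with transcript length over the 9813 genes (93.7%) matched to GENCODE v29 (Spearman rho -0.41), so levels are not compared between genes. Empty lines (2157) were left out.

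Values were tested as log2(TPM + 1), which understates changes of low genes, for the 6458 genes whose mean reached 10 TPM. limma 3.58.1 (R 4.3.3) fitted all 9 groups (18 residual degrees of freedom, median SE of a difference 0.17), with p-values adjusted within each comparison. The scripts were tested on simulated data. The replicate numbers were taken as pairs, since the labels give a batch of the same number. Deviations from group means correlated by 0.36 on average over 108 pairs of libraries with the same number, and by -0.18 over 216 with different numbers and groups. The alternatives were this block, a term for the library number, another filter, pseudocount or scaling, NT as reference, only the groups compared, and each library left out. The effects of 1 siRNA on different backgrounds were compared after seeing the data.

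The genes and lists were chosen with earlier results of these data known, and lists can share genes. All listed genes are given, and of each related list up to 5 with the smallest p in siVPS37ABC#1 against siCTRL#1. Tables and plots were made in Python 3.11.15 (with pandas 2.3.3, numpy 2.4.6, matplotlib 3.10.9, scipy 1.17.1). Promoters are from RefSeq (GRCh38.p14).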

Additional observations from a re-analysis of the deposited data

Results flagged for a closer look

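Each siRNA was added to 4 backgrounds, and 10 differences between such effects were singled out because every same-numbered pair moved one way on the first background and the opposite way on the second. These comparisons were chosen after seeing the data. Each difference is on the log2(TPM + 1) scale, with limma's interaction test adjusted over all 6458 genes. That test uses the same values that picked the differences, so its p-values give no independent support. The adjustment covers the genes within a comparison and not the comparisons screened. Single moves could be very small: in replicates 1 and 2 VEGFA was higher by 0.0023 and 0.0019 in siVPS37C#1 than in siCTRL#1.

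Of the 10 differences 1 passed without the replicate block. SLC2A1 was 0.15 higher when the VPS37B siRNA was added to siVPS37AC#1 and changed by -0.85 when it was added to siCTRL#1, a difference of 1.00 (adjusted p = 0.0160, and 0.00394 with the replicate block). For the same pair of backgrounds ADM changed by 0.97 and -0.21, a difference of 1.176 (adjusted p = 0.0816, and 0.0252 with the block).

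The other 8 did not pass with or without the block. With VPS37B, ADM differed by 0.62 between siVPS37A#1 and siCTRL#1 (adjusted p = 0.658), and SLC2A1 by 0.52 between siVPS37AC#1 and siVPS37A#1 (adjusted p = 1.00). With VPS37C added to siVPS37A#1 against siCTRL#1, BNIP3L differed by -0.62 and NDRG1 by -0.78 (adjusted p = 0.988 for both). With VPS37C added to siVPS37B#1 against siCTRL#1, VEGFA differed by -0.21 and SLC2A1 by 0.64 (adjusted p = 0.985 for both). SLC2A1 differed by 0.69 between VPS37C added to siVPS37AB#1 and to siCTRL#1, and NDRG1 by 0.90 between siVPS37AB#1 and siVPS37A#1 (adjusted p = 1.00 for both).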

How the results depend on the processing

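No called change of these genes reversed under the alternatives run. For single genes that were called, leaving out 1 library kept the call in 383 runs and ended it in 31. For those not called, 897 runs left them so and 9 made a call. The replicate block made 16 calls and ended 0. The number of called genes among the 8 moved by over 1.5 times as follows, and the cause was not tested. In siVPS37A#1 (1) it was 4 with the replicate block, 0 with only the groups compared, 2 with NT as reference and 1 to 2 with 1 library left out. In siVPS37B#1 (1) it was 2 with the replicate block and 1 to 2 with 1 library left out. In siVPS37AC#1 (1) it was 3 with the replicate block, 2 with the library number term, 0 after quantile normalization, median-of-ratios scaling or with NT as reference, and 0 to 1 with 1 library left out. In siVPS37BC#1 (0) it was 1 with the replicate block. In siVPS37ABC#1 against siVPS37AC#1 (3) it was 5 with the replicate block or the library number term and 1 to 3 with 1 library left out. For the average effect of the VPS37C siRNA (0) it was 1 with the replicate block, 3 with the library number term and 0 to 1 with 1 library left out, and for the departure of siVPS37ABC#1 from the sum (0) it was 1 with the replicate block. Smaller moves were seen elsewhere. In siVPS37AB#1 (6) the count was 7 with the replicate block, 4 with the library number term, 5 after either scaling or with NT as reference, and 4 to 6 with 1 library left out. In siVPS37ABC#1 (6) it was 7 with the block or quantile normalization and 4 to 6 with 1 library left out, and against siVPS37BC#1 (7) it was 6 after either scaling or with only the groups compared and 5 to 6 with 1 library left out. For the average effects it was 6 with the library number term for VPS37A (7), and for VPS37B (4) it was 5 with the block and 4 to 5 with 1 library left out. With a limit of 50 TPM NDRG1 and P4HA1 were not tested, so counts there are lower by construction. The replicate block changed no call other than those given. The SEs of NDRG1 and DDIT4 were 0.37 and 0.33 without the replicate block, and 0.20 for each with it. Without the block even the siVPS37A#1 changes of 1.05 and 1.12 in these genes did not pass. With 3 replicates and an unknown depth, smaller differences can be missed.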
